A study of Zea mays with 6 samples.

Results

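The transcription factor genes o2, pbf1, nac128, nac130, nkd1, nkd2 and o11 of maize (Zea mays) were followed in endosperm RNA. The 7 loci were chosen by identifier for their known roles in endosperm filling; the choice rule uses no measured value, though it was made with earlier results of these data known. All 7 were found among the 36781 loci of the expression table, with 71 of its 86771 transcripts, and all 7 passed the filter on low values. The study sequenced endosperm RNA taken at 12 days after pollination from 3 wild-type (WT) libraries and 3 libraries of the mutant smk8-ref. The labels give neither the gene affected in smk8-ref nor the genetic background that the genotypes share, and they do not say whether the repeats of a genotype come from separate ears or plants, so a p-value reflects only how far these libraries vary, which may be technical.

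The endosperm is the tissue of the maize kernel that stores starch and zein proteins, and these genes encode regulators of its filling. O2 (opaque2, a bZIP factor) and PBF1 (a DOF factor that binds the prolamin box) act together on zein promoters. NAC128 and NAC130, a pair of NAC factors, activate zein and starch synthesis genes. NKD1 and NKD2 (naked endosperm, a duplicate pair of INDETERMINATE-domain zinc finger proteins) act in aleurone differentiation and in the storage programme, and O11 (opaque11, a bHLH factor) acts in endosperm development upstream of several of these factors.

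Levels are FPKM, a fragment number scaled to transcript length and to the size of the library, summed over the transcripts of a locus. Values of a genotype are listed in the order of its replicates 1, 2 and 3. The FPKM values of a library summed to between 287260 and 321002, and 14350 to 15988 loci reached 1 FPKM; read totals are not known. The label of the tissue could be checked by few names, since only 236 of the 36781 loci carry one. A name that was not found says nothing about the level of its gene. FIE1, a Polycomb gene expressed from the endosperm, stood at 16.4 to 38.8 FPKM in WT and 19.0 to 31.1 FPKM in smk8-ref, and 0 of 9 fixed names of the basal transfer layer were found. Of 14 fixed names of embryo and scutellum, 4 were found (KN-1, OBAP1A, OBAP2A and OBAP2B), none at 0 throughout, and their summed level was 20.7, 26.2 and 68.0 FPKM in WT and 89.1, 59.1 and 77.6 FPKM in smk8-ref. The sum of WT replicate 3 therefore lay within the smk8-ref range, while for OBAP2A and KN-1 it lay below every smk8-ref library. The part of the embryo genes in the results on the 7 loci was not tested.

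nac128 fell in smk8-ref endosperm, and it was the single gene of the 7 that passed the threshold. Its level was 1.85-fold lower on the log2(FPKM + 1) scale. o2 and nkd1 had groups that did not overlap, o2 lower and nkd1 higher in smk8-ref, but neither passed. pbf1, nkd2, o11 and nac130 had overlapping groups. Changes were tested with limma on log2(FPKM + 1) over 15858 genes (two-sided, Benjamini-Hochberg adjustment, threshold 0.05). In that comparison 7.60% of all genes tested passed, 4.21% lower and 3.39% higher in smk8-ref, and 1 of 7 is a count near this background. The background itself rested on the libraries: 1205 genes passed in all, and 28 to 1425 with 1 library left out. Groups did not overlap for 3 of the 7 genes and for 34.5% of all genes tested, which is also a like share. At an unadjusted p under 0.05 there were 4 of the 7 genes, against 28.3% of all genes tested. The median log2 change of the 7 genes was 0.10, against 0.05 for all genes tested, with 4 means higher and 3 lower. In such bulk libraries fewer cells of a type and less RNA per cell cannot be told apart.

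**Figure D1:**
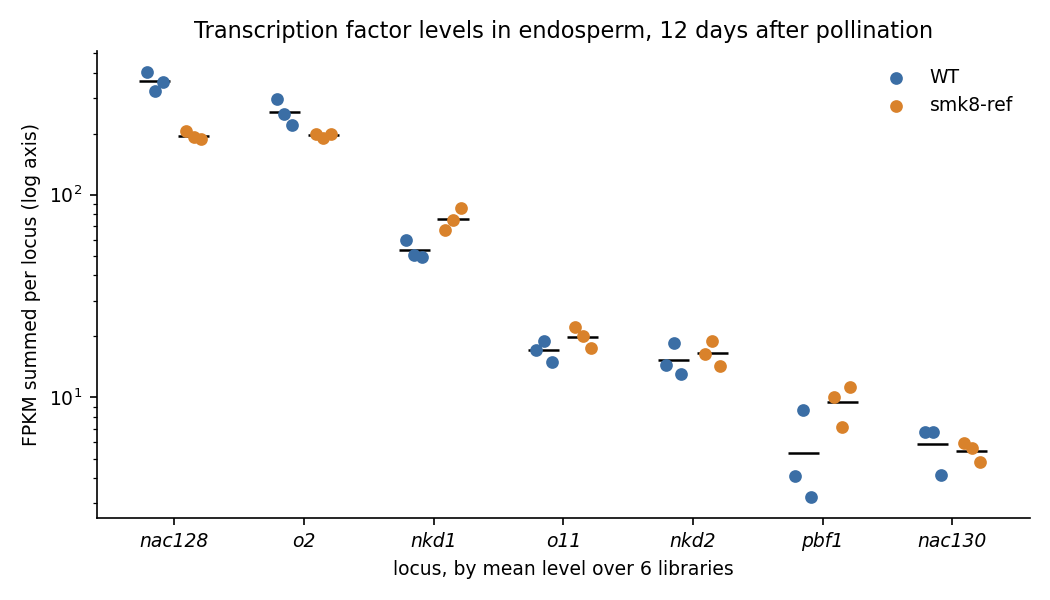
FPKM summed per locus (log axis) for each of 7 transcription factor loci (x axis, by mean level). Each point is a library, blue for WT and orange for smk8-ref (n = 3 each), and bars are group means; nac128 is at 326 to 403 FPKM in WT and 188 to 206 FPKM in smk8-ref.

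The 7 genes spanned a wide range of levels. Averaged over all 6 libraries, nac128 stood at 279 FPKM and o2 at 226 FPKM, ranks 103 and 147 among all loci. nkd1 followed at 64.5 FPKM, o11 at 18.5 FPKM and nkd2 at 15.9 FPKM, and pbf1 and nac130 stood lowest at 7.41 and 5.68 FPKM. Whether the pbf1 sum holds its main transcript could not be checked, so its place is uncertain. In WT the values of o11 and nkd2 overlapped, as did those of nac130 and pbf1, so these neighbours were not separated by their spread. In smk8-ref the same held for o2 and nac128 and for o11 and nkd2. The sum of the 7 genes was 801, 679 and 664 FPKM in WT and 527, 509 and 519 FPKM in smk8-ref, with means of 715 ± 75.3 FPKM (SD, n = 3) and 518 ± 8.93 FPKM. The means of nac128 and o2 differed by -167 and -59.3 FPKM (smk8-ref minus WT), and that of nkd1 by 22.6 FPKM.

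nac128 (Zm00001d040189, chromosome 3, 31401124 to 31403248, minus strand) encodes one of the NAC activators of storage genes. Its level was 403, 326 and 359 FPKM in WT and 206, 192 and 188 FPKM in smk8-ref. Every smk8-ref library lay below every WT library, and the smk8-ref values were close to each other. The means were 363 ± 38.4 FPKM (SD, n = 3) in WT and 195 ± 9.77 FPKM in smk8-ref, which is a log2 change of -0.89 ± 0.13 (SE, 95% interval -1.20 to -0.57, limma adjusted p = 0.022). The call rested on the full set of libraries: the adjusted p in limma was 0.070 without WT replicate 1 and 0.077, 0.084 and 0.063 without smk8-ref replicates 1, 2 and 3, with log2 changes between -0.96 and -0.81 over the 6 fits that leave out a library.

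nac128 stood above o2 in WT, and the pair stood about level in smk8-ref. The ratio of nac128 to o2 within a library, looked at after the values were seen, was 1.36, 1.31 and 1.63 in WT and 1.04, 1.01 and 0.946 in smk8-ref. All 3 WT ratios lay above all 3 smk8-ref ratios, a description with no test.

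The locus has 2 transcripts in the table, and they divided the level differently from library to library. T001 stood at 280, 246 and 249 FPKM in WT and at 55.2, 119 and 122 FPKM in smk8-ref. T002 stood at 122, 79.9 and 110 FPKM in WT and at 151, 72.4 and 65.2 FPKM in smk8-ref. smk8-ref replicate 1 therefore had the lowest T001 and the highest T002, while its locus sum was like that of the other smk8-ref libraries. T001 held 71.5 ± 3.48% (SD, n = 3) of the locus in WT and 51.4 ± 21.4% in smk8-ref, where replicate 1 was at 26.7%. The difference between the means was -20.1 percentage points, and -7.74 without smk8-ref replicate 1. The groups did not overlap (exact two-sided permutation test over samples, p = 0.10, the smallest that 3 against 3 allows, adjusted p = 0.27 over 19 shares). In limma over 23076 transcripts, T001 had a log2 change of -1.46 ± 0.32 (SE, adjusted p = 0.075) and T002 of -0.19 ± 0.35 (adjusted p = 0.80). With each locus represented by its most abundant transcript in place of the sum, nac128 did not pass (limma adjusted p = 0.054). In the authors' deposited table T001 is marked down, with a log2 fold change of -1.76 and a q-value of 0.81, and T002 is marked as no change, with a log2 fold change of 0.56.

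nac130 (Zm00001d008403, chromosome 8, 7619712 to 7621282, plus strand), the partner of nac128, was expressed at a far lower level. It stood at 6.78, 6.79 and 4.14 FPKM in WT and at 5.95, 5.62 and 4.78 FPKM in smk8-ref. The groups overlapped, and WT replicate 3 was the lowest library. The log2 change was -0.08 ± 0.20 (SE, 95% interval -0.56 to 0.40, limma adjusted p = 0.84). nac128 exceeded nac130 by 59.4, 48.0 and 86.7 times in WT and by 34.7, 34.1 and 39.2 times in smk8-ref. This ratio was lower in every smk8-ref library, with a mean log2 difference of -0.80 (exact two-sided permutation test over samples, p = 0.10, the smallest possible, adjusted p = 0.20 over 2 ratios).

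o2 (Zm00001d018971, chromosome 7, 11075377 to 11078232, plus strand), the bZIP activator of zein genes, stood at 296, 249 and 220 FPKM in WT. In smk8-ref it stood at 199, 191 and 198 FPKM. The groups did not overlap, but the lowest WT library, replicate 3, was near the smk8-ref values. The mean was 255 ± 38.5 FPKM (SD, n = 3) in WT and 196 ± 4.50 FPKM in smk8-ref, which is a log2 change of -0.37 ± 0.14 (SE, 95% interval -0.71 to -0.027) that did not pass (limma adjusted p = 0.15). With quantile normalization the log2 change of o2 was 0.015 (limma adjusted p = 0.96), so its direction was not kept under every scaling. It was -0.33 with libraries scaled to an equal sum and -0.52 with median-of-ratios scaling. In the fits that leave out a library it was -0.47 to -0.26. o2 passed in 0 of 16 alternatives.

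Both o2 transcripts in the table shifted little against each other. T003 held 90.1%, 85.6% and 84.0% of the locus in WT and 86.4%, 85.0% and 84.2% in smk8-ref, with T001 as the remainder. The groups overlapped (exact two-sided permutation test over samples, p = 0.70). Each transcript is marked as no change in the authors' deposited table.

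pbf1 (Zm00001d005100, chromosome 2, 158148226 to 158156919, minus strand), the DOF partner of O2, had a low and variable sum in the table, and whether that sum holds its main transcript could not be checked. Its level was 4.12, 8.67 and 3.24 FPKM in WT and 10.01, 7.12 and 11.3 FPKM in smk8-ref. WT replicate 2 lay above smk8-ref replicate 2, so the groups overlapped. The log2 change was 0.80 ± 0.33 (SE, 95% interval 0.027 to 1.57) and did not pass (limma adjusted p = 0.17).

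A single transcript carried the variation of pbf1. The table lists 43 transcripts of the locus, numbered up to T114, and 42 of them averaged under 1 FPKM. The other, T096, stood at 0.217, 4.37 and 0.408 FPKM in WT and at 6.77, 3.50 and 7.69 FPKM in smk8-ref. WT replicate 2 lay above smk8-ref replicate 2 for this transcript too. Without T096 the locus sum was 2.84 to 4.30 FPKM over all 6 libraries, with means of 3.68 ± 0.756 FPKM (SD, n = 3) in WT and 3.49 ± 0.224 FPKM in smk8-ref. T096 was left out after the values were seen, and the rest holds only transcripts that average under 1 FPKM. The sum without T096 is therefore a description and no test.

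**Figure D2:**
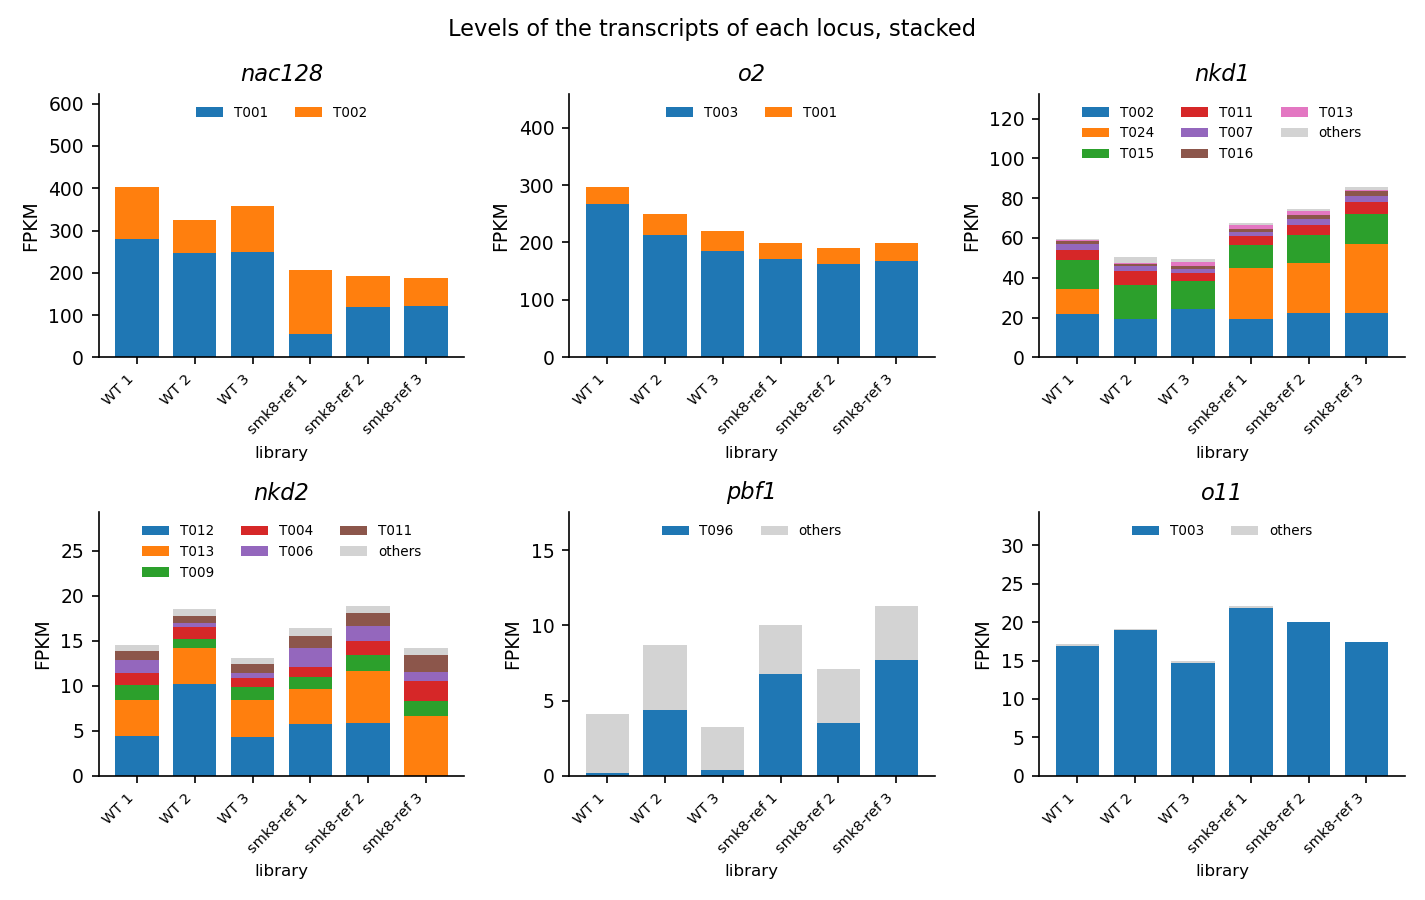
Stacked FPKM of the transcripts of 6 loci (y axis from 0) in each library (x axis, WT and smk8-ref replicates 1 to 3); grey is the sum of transcripts that average under 1 FPKM. T024 of nkd1 is at 25.2 to 34.8 FPKM in smk8-ref and at 12.4, 0.0029 and 0.0084 FPKM in WT, and T001 of nac128 is lower in each smk8-ref library than in any WT library.

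nkd1 (Zm00001d002654, chromosome 2, 18312495 to 18320006, minus strand) was the member with the higher smk8-ref values that came nearest to the threshold. It stood at 59.7, 50.5 and 49.4 FPKM in WT and at 67.3, 74.7 and 85.6 FPKM in smk8-ref. The groups did not overlap. The means were 53.2 ± 5.64 FPKM (SD, n = 3) and 75.8 ± 9.19 FPKM, a log2 change of 0.50 ± 0.14 (SE, 95% interval 0.17 to 0.83, limma adjusted p = 0.076). It passed with quantile normalization (log2 change 0.84, limma adjusted p = 0.026). That was the 1 call among 17 alternatives, which include the sum without transcript T024 given below. With median-of-ratios scaling the log2 change was 0.35 (limma adjusted p = 0.30). In the fits that leave out a library the adjusted p in limma was 0.11 to 0.19.

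As the reads were divided among transcripts, the nkd1 difference lay in transcript T024 (18312686 to 18319745). StringTie, the tool named for these values, divides reads among overlapping transcripts, so this split is less certain than the locus sum. The table lists 11 transcripts of nkd1, numbered up to T024. T024 stood at 25.3, 25.2 and 34.8 FPKM in smk8-ref and at 12.4, 0.0029 and 0.0084 FPKM in WT. WT replicate 1 was thus intermediate, and WT replicates 2 and 3 were near 0. With T024 left out, a choice made after the values were seen, the locus stood at 47.3, 50.5 and 49.4 FPKM in WT and at 42.0, 49.5 and 50.7 FPKM in smk8-ref, and the log2 change was -0.05 ± 0.12 (SE, limma adjusted p = 0.81).

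T024 held 37.6%, 33.7% and 40.7% of nkd1 in smk8-ref. In WT it held 20.8%, 0.0058% and 0.017%. The shares did not overlap between genotypes (difference of means 30.4 percentage points, exact two-sided permutation test over samples, p = 0.10, adjusted p = 0.27 over 19 shares). Of the 19 shares, 7 did not overlap, among them those of nkd1 T002, T007, T011 and T015, all lower in smk8-ref. Shares of a locus are not independent, since a rise in a share lowers the others. In limma over all transcripts T024 had a log2 change of 3.61 ± 1.001 (SE, adjusted p = 0.12). Without WT replicate 1, the single WT library with T024 well above 0, it was 4.86 (limma adjusted p = 0.012). That was the 1 call among 12 alternatives. In the other fits that leave out a library the adjusted p in limma was 0.21 to 0.27. The authors' deposited table marks T024 as up, with a log2 fold change of 6.30 and a q-value of 0.68.

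The 3 other most abundant nkd1 transcripts differed between genotypes by less than the larger SD. T002 averaged 21.8 ± 2.70 FPKM (SD, n = 3) in WT and 21.3 ± 1.67 FPKM in smk8-ref, T015 15.3 ± 1.88 and 13.7 ± 1.66 FPKM, and T011 5.12 ± 1.41 and 5.14 ± 0.745 FPKM. The less abundant T016 averaged 1.34 ± 0.263 FPKM in WT and 2.05 ± 0.281 FPKM in smk8-ref, with groups that did not overlap, and did not pass (limma adjusted p = 0.29). The minor transcript T023 stood at 0.035, 2.55 and 1.03 FPKM in WT and at 0.050, 0.087 and 0.156 FPKM in smk8-ref. T023 was therefore detected above 1 FPKM in the 2 WT libraries in which T024 was near 0. The authors' deposited table marks T023 as down, with a log2 fold change of -1.95 and a q-value of 0.70.

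nkd2 (Zm00001d026113, chromosome 10, 138719539 to 138725394, minus strand), the duplicate of nkd1, stood at 14.5, 18.5 and 13.1 FPKM in WT. In smk8-ref it stood at 16.4, 18.9 and 14.2 FPKM. The groups overlapped almost fully, with a log2 change of 0.10 ± 0.17 (SE, 95% interval -0.30 to 0.50, limma adjusted p = 0.74). nkd1 exceeded nkd2 by 4.11, 2.73 and 3.77 times in WT and by 4.11, 3.95 and 6.02 times in smk8-ref, and these ratios overlapped (exact two-sided permutation test over samples, p = 0.20).

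The nkd2 transcripts also split unevenly between libraries of a genotype. T012 was at 5.80 and 5.86 FPKM in smk8-ref replicates 1 and 2 and at 0.00024 FPKM in replicate 3, against 4.44, 10.2 and 4.34 FPKM in WT. T013 was highest in smk8-ref replicate 3, at 6.65 FPKM, and the locus sum of that library was within the range of the others. The authors' deposited table marks T006 of nkd2 as up, with a log2 fold change of 1.22 and a q-value of 0.67. As for nac128, nkd1 and pbf1, such splits are less certain than locus sums, since StringTie divides reads among overlapping transcripts.

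o11 (Zm00001d003677, chromosome 2, 53849188 to 53854880, minus strand), the bHLH gene, stood at 17.1, 19.0 and 14.995 FPKM in WT. In smk8-ref it stood at 22.2, 20.0 and 17.5 FPKM. The groups overlapped, with a log2 change of 0.21 ± 0.14 (SE, 95% interval -0.13 to 0.55, limma adjusted p = 0.38). T003 held 98.1% to 99.7% of the locus in every library, so its locus level was nearly that of T003 alone.

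Of the 71 transcripts, 20 passed the filter and were tested. None passed in limma, where 2.12% of all transcripts tested did. At an unadjusted p under 0.05 there were 5, against 20.1% of all transcripts, and groups did not overlap for 5, against 27.7% of all transcripts. The smallest adjusted p was that of nac128 T001.

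**Figure D3:**
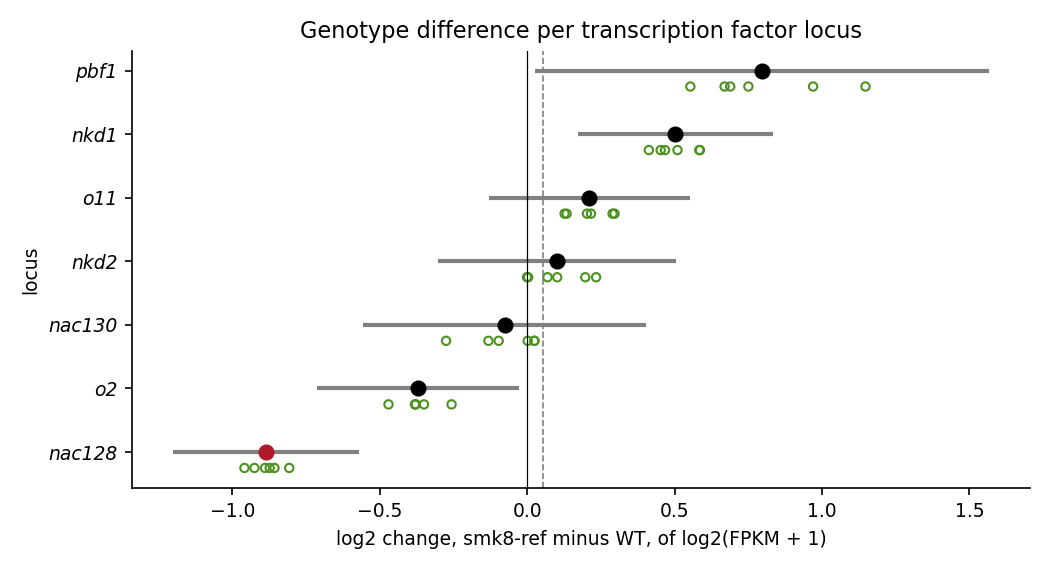
Log2 change per locus (x axis, smk8-ref minus WT, log2(FPKM + 1) scale); filled points are estimates (red where the adjusted p is under the threshold), grey lines 95% intervals, open green circles the fits that leave out 1 library, and the dashed line the median of all genes tested (0.05). nac128 lies farthest below 0 and pbf1 has the widest interval.

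The profiles over the 6 libraries were compared by the root mean square difference of mean-centred log2(FPKM + 1) values. Among the 7 genes, nkd2 and o11 were nearest to each other (0.12), and nac128 and pbf1 were farthest apart (0.96). The nearest of the 7 to nac128 was o2 (0.28), and the nearest to nkd1 was o11 (0.27). These distances include the genotype difference and any trait that a library shares across genes, and they carry no test.

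Among 150 other genes with a name in the table and at least 5 FPKM on average, the profile nearest to nac128 was that of DER1.2, a derlin gene of the endoplasmic reticulum (0.12, against a median of 0.39). DER1.2 stood at 23.0 ± 1.81 FPKM (SD, n = 3) in WT and 12.8 ± 2.35 FPKM in smk8-ref. DER2.1 was nearest to o2 (0.082) and to nac130 (0.16), CYN to nkd1 (0.16), IAGLU to nkd2 (0.17) and ALS1 to o11 (0.13). The nearest to pbf1, ITPK1, lay at 0.40, the widest such distance of the 7 genes. The median for pbf1 was also wide, at 0.76.

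**Figure D4:**
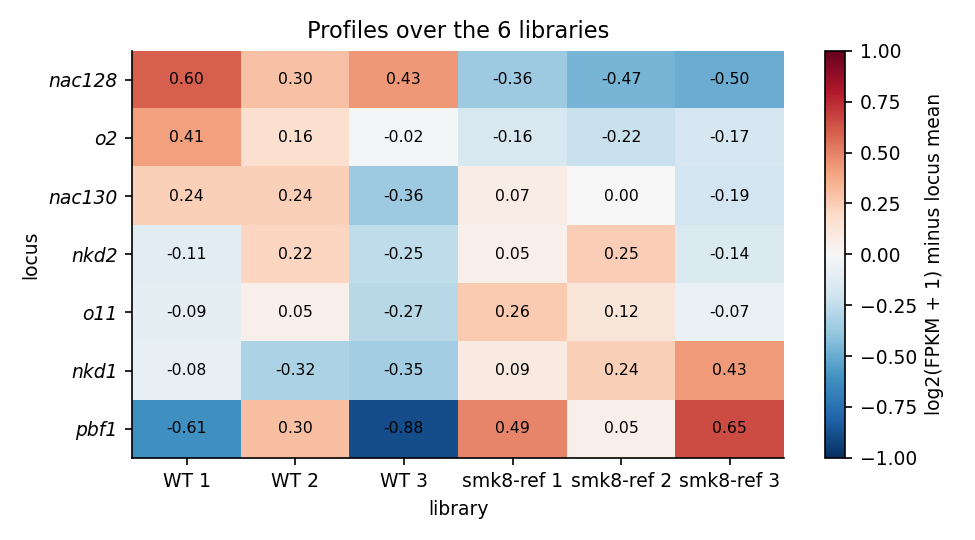
Log2(FPKM + 1) minus the mean of each locus (colour and printed value) for 7 loci (rows, from the largest decrease to the largest increase) in 6 libraries (columns). nac128 is above its mean in the 3 WT libraries and below it in the 3 smk8-ref libraries, and pbf1 ranges from -0.88 in WT replicate 3 to 0.65 in smk8-ref replicate 3.

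Few other genes could be followed by name, since few loci carry one, and a name not found says nothing about its gene. Of 37 fixed names of transcription and chromatin regulators, 5 were found in the table (FIE1, FIE2, HOX1A, KN-1 and RS2). Of these, 4 were tested, and none passed in limma, with 0 at an unadjusted p under 0.05. The names of the 7 members were among the 37, and none of those was found. KN-1 is also one of the embryo names above. The list is therefore no account of other regulators of endosperm filling. RS2, a MYB gene, averaged 0.576 ± 0.467 FPKM (SD, n = 3) in WT and 1.07 ± 0.392 FPKM in smk8-ref. Of 43 fixed names of targets and storage genes, 1 was found. PPDK2, a pyruvate phosphate dikinase gene, stood at 2781, 2904 and 2259 FPKM in WT and at 1886, 1475 and 2023 FPKM in smk8-ref. Its groups did not overlap, and it did not pass (log2 change -0.57 ± 0.21, SE, limma adjusted p = 0.14).

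Names of markers of the embryo-surrounding region and aleurone were also sparse in the table. ESR3 fell, from 3.71 ± 0.840 FPKM (SD, n = 3) to 0.966 ± 0.730 FPKM (limma adjusted p = 0.043), and ESR1, the other of the 2 found among 3 fixed names, ranged from 0.601 to 6.76 FPKM in smk8-ref. The summed level of both was 4.73 to 6.39 FPKM in WT and 0.909 to 8.51 FPKM in smk8-ref. CR4, the 1 aleurone name found of 5, stood at 7.24 to 8.93 FPKM in WT and 9.24 to 10.4 FPKM in smk8-ref (limma adjusted p = 0.21).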

How the data were processed

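Endosperm RNA was measured in 6 libraries. HISAT (a spliced aligner) and StringTie (a transcript quantifier) were used, per the submitters' processing notes; the sources used here give no version, setting or build. Contigs are named with the prefix B73V4, and coordinates are printed as the table has them. The file deposited by the authors holds FPKM values per transcript, with their own fold change (a ratio), log2 fold change, p-value and q-value; the model behind these is not stated. FPKM was summed per locus. Genes with at least 1 FPKM in at least 3 libraries were tested with limma 3.58.1 in R 4.3.3 (log2(FPKM + 1), empirical Bayes with a variance trend), which understates changes of low genes; transcripts were tested likewise. Shares and ratios were tested by exact permutation. The procedure was tested on simulated data. Gene names come from the rule that chose the members; the RefSeq table matched 0 identifiers and holds 5 of the 7 names. All members, their transcripts, the nearest named gene to each and fixed name lists were named. The members and lists were chosen with earlier results of these data known. No reference sequence was used here. Alternatives covered the pseudocount, filter, scaling, variance trend, transcript choice, replicate block and each library left out.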

Additional observations from a re-analysis of the deposited data

How the results depend on the processing

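nac128 kept its direction under all 16 alternatives (log2 change -1.46 to -0.60) and its call in 10. The call was lost with the most abundant transcript per locus (-1.46, limma adjusted p = 0.054) and with the replicate block (-0.89, limma adjusted p = 0.059). It was also lost without WT replicate 1 and without each smk8-ref replicate (limma adjusted p = 0.063 to 0.084). Without 1 library the log2 change ranged from -0.96 to -0.81. The count of members past the threshold was 0 with the most abundant transcript and with the replicate block. It was 2 with quantile normalization, and 0 to 1 with 1 library left out. The count over all genes was 1205, and 388 with no filter, 779 with quantile normalization, 620 with the most abundant transcript, 36 with the replicate block and 28 to 1425 with 1 library left out. With median-of-ratios scaling 785 of 1094 calls were lower, against 667 of 1205. That scaling moved the median of all genes from 0.05 to -0.07. Relative to the median of all genes, nac128 lay at -0.97 with that scaling, -0.94 in the main fit and -0.58 with quantile normalization. With the filter at 5 FPKM, 788 of 1194 calls were lower and the median of all genes was -0.05. Uncalled log2 changes that changed sign were nkd2 with median-of-ratios scaling (-0.046, which is 0.020 relative to the median of all genes, so its sign against other genes was kept), the most abundant transcript (-0.94) and without WT replicate 3 (-0.00081; up to 0.23 with another library left out), o2 with quantile normalization (0.015; its T003 0.031), nkd1 with the most abundant transcript (-0.029) and without T024 (-0.053), nac130 without WT replicates 1 and 2 and smk8-ref replicate 3 (0.024, 0.024 and 0.0015; down to -0.28 with another left out), nac128 T002 with quantile normalization (0.25) and without smk8-ref replicate 3 (0.030), and the share of o2 T003 without WT replicate 1 (0.44 points, against -2.63 at the other end). The genotype difference (smk8-ref minus WT) of the log2 ratio of nac128 to nac130 ranged from -0.998 to -0.57 and that of nkd1 to nkd2 from 0.21 to 0.52 with 1 library left out. Alternatives for transcripts and ratios and the sums without nkd1 T024 and without pbf1 T096 were added after seeing the data. The cause of these changes was not tested. Numbers were not taken to pair libraries: deviations of same-numbered libraries correlated at 0.0069, -0.0085 and 0.083, and a library pair correlated best within its own number for replicate 3 alone. Depth is unknown, so no counting interval is given.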
